A study of Rattus norvegicus with 3 samples.

Results

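The contractile genes of smooth muscle were followed in RNA from the acellular fraction of the rat spinal cord after spinal cord injury (SCI). The 10 genes were ACTA2, ACTG2, TAGLN, MYH11, MYL9, CNN1, DES, TPM1, TPM2 and MYLK. They were chosen by symbol, by a rule that used no measured value, but with earlier results of these data known. Of the 10 genes 9 are among the 12758 gene symbols of the deposited table. ACTG2, the gamma actin of visceral smooth muscle, has no entry. The data came from female rats of the Sprague Dawley strain, aged 3 months. Controls (No-SCI) received only the laminectomy at T9, and injured rats (SCI) also received a contusion there. At 24 h a piece of cord just rostral to the injury was digested with a cold-active protease, intact cells were pelleted, and the supernatant was sequenced. The labels list 2 No-SCI libraries and 1 SCI library, while the methods of the study state 2 animals per condition. The deposited values are 1 FPKM value (fragment counts scaled to transcript length and sequencing depth) for each group. The study states a read number per sample, but the reads behind each value are not given. The spread between animals is not known either, and the difference between the groups has no replicate check. No test between the groups was made here. A gene was called higher or lower where its FPKM in SCI was at least 2-fold above or below that in No-SCI.

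Smooth muscle surrounds the arteries, arterioles and veins of the cord and its meninges. Its thin filaments are built from actin and tropomyosin and carry calponin and transgelin, and its thick filaments are built from myosin. Contraction begins when calcium and calmodulin activate myosin light chain kinase, which phosphorylates the regulatory light chain of myosin. Desmin filaments tie the contractile apparatus together. Many of these genes are controlled by serum response factor (SRF) with its coactivator myocardin. Some of them, such as ACTA2, MYH11 and CNN1, are used as markers of smooth muscle. Others, such as TPM1, TPM2, MYL9 and TAGLN, are also made in fibroblasts, endothelial cells or striated muscle.

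The 9 listed genes were split in direction after SCI. TPM2, a tropomyosin, was the 1 member called, at 2.06-fold higher, and none of the 9 was at least 2-fold lower. CNN1 could not have been, since its No-SCI value of 1.83 FPKM is less than 2-fold above 1, the lowest value listed. Of all 12758 genes 7.93% were at least 2-fold higher and 12.1% at least 2-fold lower. In group values 6 members were higher and 3 lower after SCI, while 43.6% of all genes were higher and 56.4% lower. The median of the members' log2 ratios (SCI over No-SCI) was 0.13, while that of all genes was −0.12. Setting the median of all genes to 0 moves every log2 ratio up by 0.12, and none of the 9 members changed its direction under any scaling. Every scaling used moves ratios up, by at most 0.12, so only a ratio between −0.12 and 0 could have turned. No member has such a ratio. At 1.3-fold, the minimum set by the study, 3 members were higher (TAGLN, TPM1 and TPM2) and 3 lower (MYH11, DES and MYLK). For all genes the shares at 1.3-fold were 24.6% higher and 35.7% lower. At 1.5-fold 2 members were higher and 2 lower, and the shares of all genes were 16.9% and 26.3%. No member reached 3-fold in either direction, a size reached by 3.17% of all genes upward and 3.27% downward.

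**Figure D1:**
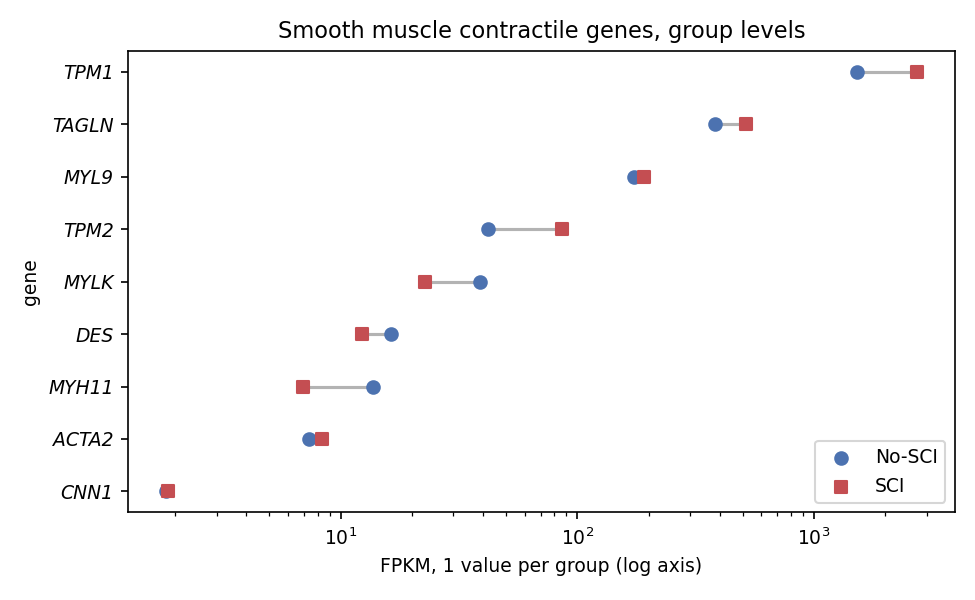
FPKM of the 9 listed smooth muscle contractile genes on a log axis, with a circle for the No-SCI value and a square for the SCI value, each 1 value per group without error. The levels run from 1.83 for CNN1 to 1513 for TPM1 in No-SCI, and the squares lie clearly to the right for TPM1 and TPM2 and to the left for MYH11 and MYLK.

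The members differed far more in level than in response. In No-SCI the order of FPKM from high to low was TPM1, TAGLN, MYL9, TPM2, MYLK, DES, MYH11, ACTA2 and CNN1, and the highest was 828 times the lowest. After SCI the order was the same except that ACTA2 stood above MYH11, and the highest was 1467 times the lowest. TPM1 alone gave 69.1% of the summed FPKM of the 9 members in No-SCI rats and 76.3% in SCI rats. The sum was 2190 FPKM without and 3576 FPKM with injury, which is 1.63-fold higher, and without TPM1 it was 677 and 847 FPKM, or 1.25-fold higher. TAGLN was 52.2 times as abundant as ACTA2 in No-SCI and 61.9 times after SCI. Whether neighbours in this order differ beyond the spread between animals cannot be said. The values of TPM1, MYL9, MYLK, MYH11 and CNN1 carry 7 significant digits, 1 more than those of the other 4, and 58.6% of all genes do so. The reason for the extra digit is not given in the sources used here, so levels are compared between genes with that limit.

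Sequences upstream of 3 members are shown because they hold the motifs searched for. Promoters from RefSeq (build GRCr8, whereas the values were made on rn6) were found for 7 of the 10 members, that is for ACTA2, ACTG2, CNN1, DES, TPM1, TPM2 and MYLK, and not for TAGLN, MYH11 and MYL9. The 250 bases before the annotated start are given 5′ to 3′ in the direction of the gene. In ACTA2 (chr1:241172504-241172753, minus strand), TPM1 (chr8:76543416-76543665, minus strand) and MYLK (chr11:79498575-79498824, minus strand) the capitals mark the TEAD motif CATTCC or its reverse complement GGAATG, and in ACTA2 also 2 sites close to a CArG box, the element bound by SRF.
ACTA2: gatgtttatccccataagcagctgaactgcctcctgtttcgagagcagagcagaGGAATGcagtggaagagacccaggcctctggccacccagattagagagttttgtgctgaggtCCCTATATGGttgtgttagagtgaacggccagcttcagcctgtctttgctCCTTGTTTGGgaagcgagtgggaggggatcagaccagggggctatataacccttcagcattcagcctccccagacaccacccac
TPM1: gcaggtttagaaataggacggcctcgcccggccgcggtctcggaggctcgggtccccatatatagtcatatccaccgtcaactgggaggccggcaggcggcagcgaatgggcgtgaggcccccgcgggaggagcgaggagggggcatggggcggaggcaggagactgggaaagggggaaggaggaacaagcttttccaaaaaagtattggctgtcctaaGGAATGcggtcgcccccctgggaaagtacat
MYLK: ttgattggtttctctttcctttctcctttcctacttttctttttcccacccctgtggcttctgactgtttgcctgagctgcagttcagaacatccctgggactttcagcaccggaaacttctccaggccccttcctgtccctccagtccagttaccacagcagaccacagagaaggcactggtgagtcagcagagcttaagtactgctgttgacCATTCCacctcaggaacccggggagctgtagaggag
The TEAD motif begins 196 bases before the start in ACTA2, 31 bases before it in TPM1 and 36 bases before it in MYLK. It is present on either strand in 3 of the 7 member promoters and in 14.2% of all 33469 promoters of 300 bases. The exact CArG box (CC, then 6 letters that are A or T, then GG) is in none of the 7 and in 1.64% of all promoters. With 1 G or C allowed among the 6 middle letters, a rule added after the promoters were seen, it is in 1 of the 7, ACTA2, and in 8.10% of all promoters. The 2 copies in ACTA2, CCCTATATGG and CCTTGTTTGG, begin 134 and 84 bases before the start. TATAAA is in none of the 7 and in 14.2% of all promoters, and none of the marked motifs overlap. The 3 genes with the TEAD motif went different ways, with log2 ratios of 0.19 for ACTA2, 0.85 for TPM1 and −0.77 for MYLK.

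Among the thin filament genes, both tropomyosins were higher after SCI and the actin was nearly level. TPM1, which encodes an alpha tropomyosin that lies along the actin filament, was listed at 1513 FPKM in No-SCI and 2729 FPKM in SCI. This is 1.80-fold, a log2 ratio of 0.85, and TPM1 moved from rank 106 to rank 48 among all genes. TPM2, which encodes beta tropomyosin, went from 42.0 to 86.5 FPKM, with a log2 ratio of 1.04 that 949 of the 12758 genes exceeded. TPM1 was 36.0 times as abundant as TPM2 in No-SCI and 31.5 times after SCI. ACTA2, the alpha actin of vascular smooth muscle, was listed at 7.33 FPKM in No-SCI and 8.36 FPKM in SCI, a log2 ratio of 0.19. Among all genes ACTA2 stood at percentile 29.3 in No-SCI rats and 34.6 in SCI rats.

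Of the actin-binding members, TAGLN was higher by 1.35-fold and CNN1 was close to level. TAGLN, which encodes transgelin (SM22), went from 383 to 517 FPKM (log2 ratio 0.43), and lay at percentile 95.9 of all genes in No-SCI. CNN1, which encodes the basic calponin of differentiated smooth muscle, was listed at 1.83 FPKM in No-SCI and 1.86 FPKM in SCI, a log2 ratio of 0.02. Both values of CNN1 are close to 1, the minimum that the table holds. TAGLN and CNN1 encode proteins of the same calponin family, and TAGLN was 209.5 times as abundant in No-SCI.

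The heavy chain MYH11 and the kinase MYLK were lower, though neither was called, and the light chain MYL9 was slightly higher. MYH11, the smooth muscle myosin heavy chain, was listed at 13.7 FPKM in No-SCI and 6.93 FPKM in SCI. This is 1.97-fold lower, a log2 ratio of −0.98, just inside the 2-fold threshold, and 1598 genes had a lower ratio. MYLK, the myosin light chain kinase that starts contraction, went from 38.9 to 22.7 FPKM, 1.71-fold lower or a log2 ratio of −0.77. MYL9, the regulatory light chain that MYLK phosphorylates, was listed at 174 and 190.5 FPKM (log2 ratio 0.13). DES, which encodes desmin, the intermediate filament of muscle cells, went from 16.3 to 12.4 FPKM (log2 ratio −0.40). The level of MYL9 was 12.7 times that of MYH11 in No-SCI and 27.5 times after SCI. With 1, the minimum of the table, subtracted from both values, the log2 ratio of MYH11 was −1.10, past 2-fold.

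Members at low levels can be read against genes of like level. Of the 2672 genes under 5 FPKM in No-SCI, which include CNN1, 17.8% were at least 2-fold higher and 6.18% at least 2-fold lower. Of the 6714 genes from 5 to 50 FPKM, which include ACTA2, MYH11, DES, TPM2 and MYLK, 6.48% were higher and 14.3% lower. TAGLN and MYL9 lie among 3006 genes from 50 to 500 FPKM, where 3.03% were higher and 12.2% lower. TPM1 lies among 366 genes of 500 FPKM or more, where the shares were 2.73% and 12.8%. The 1 called member, TPM2, is in the range from 5 to 50 FPKM. These ranges are cut on the No-SCI value, which is also the denominator of the ratio, so the shares depend in part on the cut.

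**Figure D2:**
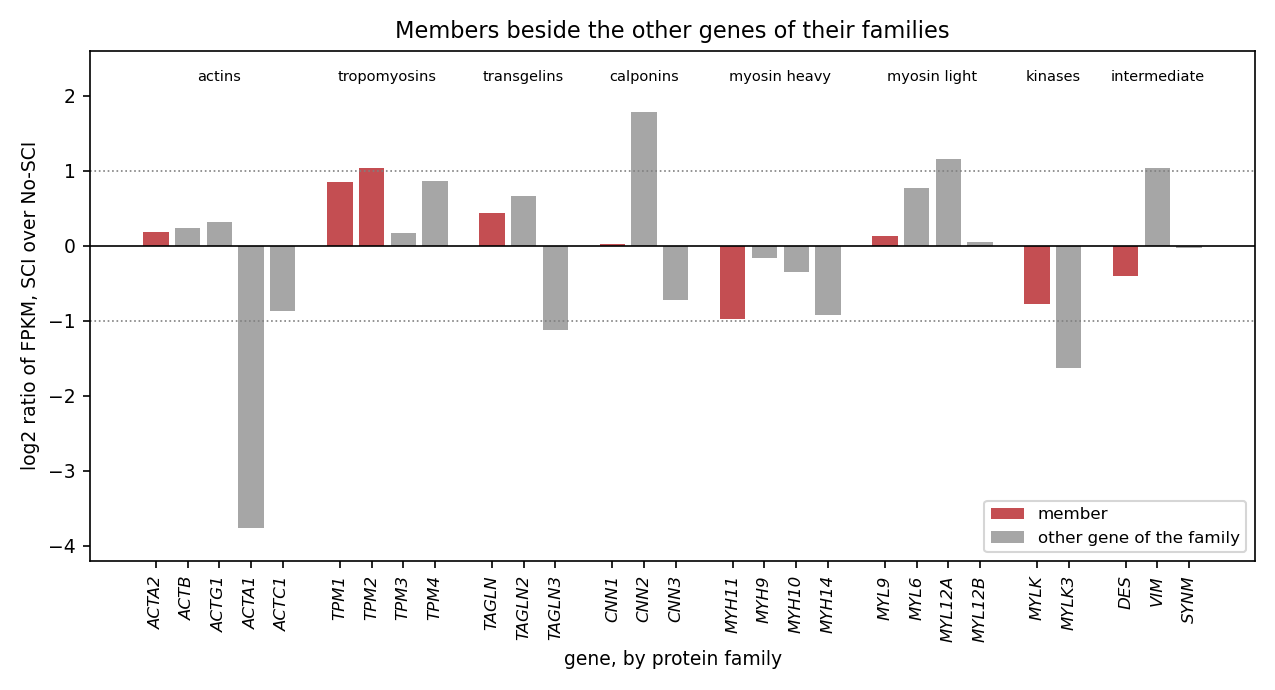
Log2 ratio of FPKM, SCI over No-SCI, for each member (red bars) and chosen other genes of its protein family (grey bars), with dotted lines at 2-fold. The heavy and light chains of striated muscle myosin are not drawn. The 4 tropomyosins lie above 0 and MYH9, MYH10, MYH11 and MYH14 lie on the negative side, while ACTA1, an actin of skeletal muscle, reaches −3.76.

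Each member has close relatives that are made in non-muscle or striated muscle cells. How reads from similar relatives were divided by the authors' counting is not known, so values of actins, tropomyosins and myosins carry that uncertainty. The non-muscle tropomyosins TPM3 and TPM4 were also higher after SCI, with log2 ratios of 0.16 and 0.87. TPM1 went from 26.2% of the level of TPM3 in No-SCI to 42.2% after SCI. TPM2 was at 37.2% and 42.0% of TPM4. All 4 tropomyosin genes were thus higher in SCI, with TPM2 the one past 2-fold, while 43.6% of all genes were higher.

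The actins of non-muscle cells were far more abundant than ACTA2. ACTB was listed at 10547 FPKM in No-SCI and 12462 FPKM in SCI, and ACTA2 came to 0.0695% of it in No-SCI and 0.0671% after SCI. The log2 ratios of ACTB and ACTG1, 0.24 and 0.32, were near the 0.19 of ACTA2. ACTA1, the skeletal muscle actin, instead went from 60.8 to 4.48 FPKM, and ACTC1, the cardiac actin, from 2.45 to 1.34 FPKM. In No-SCI the level of ACTA1 was thus above that of ACTA2, and after SCI it was below it.

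The myosin heavy chains MYH9, MYH10 and MYH14 of non-muscle cells had log2 ratios of −0.16, −0.36 and −0.92. MYH11 and these relatives, 4 heavy chains in all, were thus lower in SCI, as were 56.4% of all genes. MYH11 went from 127% of the level of MYH9 to 71.9%, and from 67.3% of MYH10 to 43.7%. Among the light chains MYL9 was at 16.4% of MYL12A in No-SCI and 8.05% after SCI, since MYL12A, its near relative in non-muscle cells, rose from 1057 to 2365 FPKM. Against MYL12B the share of MYL9 was 35.0% and 37.1%. The essential light chain MYL6 went from 4366 to 7420 FPKM (log2 ratio 0.77).

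Calponins and transgelins were divided within their families. CNN2, a calponin of non-muscle cells, rose from 5.46 to 18.8 FPKM (log2 ratio 1.78), and CNN3, which is abundant in neural tissue, went from 2138 to 1296 FPKM (log2 ratio −0.72). The log2 ratio of CNN1 lay between them, and CNN1 went from 33.5% to 9.90% of the level of CNN2. Against CNN3 it went the other way, from 0.0855% to 0.144%. TAGLN2 had a log2 ratio of 0.66, and TAGLN3, the neuronal transgelin, fell from 800.0 to 366 FPKM (log2 ratio −1.13). TAGLN went from 29.2% of TAGLN2 to 25.0%. Against VIM, the vimentin of mesenchymal cells, which rose from 819 to 1674 FPKM, DES went from 1.99% to 0.739%.

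**Figure D3:**
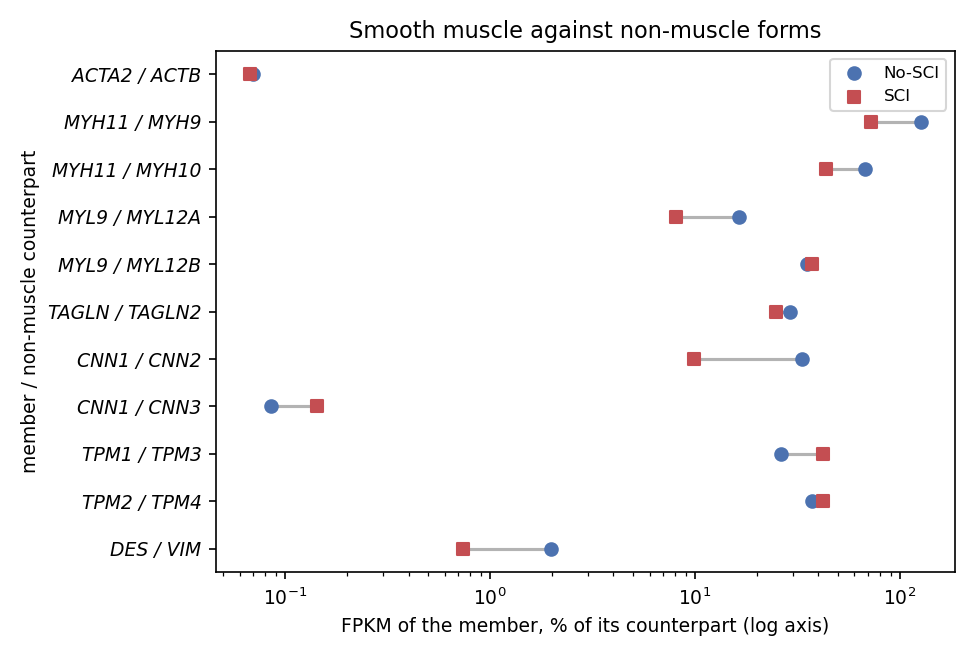
FPKM of each member as a percentage of its non-muscle counterpart on a log axis, with a circle for No-SCI and a square for SCI, 1 value per group without error. MYH11, MYL9 against MYL12A, CNN1 against CNN2 and DES moved left, MYL9 from 16.4% to 8.05% and DES from 1.99% to 0.739%. TPM1, from 26.2% to 42.2%, and CNN1 against CNN3, from 0.0855% to 0.144%, moved right. CNN1 itself was close to level, at 1.83 FPKM in No-SCI and 1.86 FPKM in SCI.

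The other genes of the contractile pathway were followed by lists. Their counts stand beside the shares of all genes, 7.93% called higher and 12.1% called lower. Of 23 regulators of myosin light chain phosphorylation 20 are in the table, of which 2 were called higher and 1 lower. DAPK3, a kinase that phosphorylates myosin light chain without calcium, rose from 15.8 to 65.7 FPKM (log2 ratio 2.06). PDE5A, which breaks down cGMP, rose from 1.42 to 3.14 FPKM, and GUCY1B1, a subunit of the guanylate cyclase that nitric oxide activates, fell from 15.6 to 4.01 FPKM, with log2 ratios of 1.14 and −1.96. RHOA, a small GTPase, is the most abundant gene of the list and was listed at 744 and 651 FPKM. Over the list the median log2 ratio was −0.01, and it turned positive under median centring.

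Of 15 genes of the SRF and myocardin pathway 11 are in the table and 4 were called, all higher. These were FHL2, KLF5, KLF4 and CSRP2. By the same rule 7.93% of all genes were called higher and 12.1% lower. FHL2, a LIM protein that binds SRF, rose from 16.8 to 298 FPKM (log2 ratio 4.15). KLF5 rose from 3.06 to 17.5 FPKM and KLF4, a repressor of smooth muscle genes, from 3.81 to 11.5 FPKM. Both lie under 5 FPKM in No-SCI, a range where 17.8% of genes were at least 2-fold higher. CSRP2, a LIM protein, rose from 20.9 to 42.0 FPKM. SRF itself, named because the list bears its name, was listed at 3.76 FPKM in No-SCI and 5.43 FPKM in SCI, and MYOCD, the gene of myocardin, has no entry. In group values 7 of the 11 genes were higher and 4 lower, beside 43.6% and 56.4% of all genes. CSRP1, the most abundant gene of the list in No-SCI, fell from 666 to 406 FPKM (log2 ratio −0.71). Over the list the median log2 ratio was 0.53, and 0.95 among its genes with a mean of at least 5 FPKM.

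The remaining lists of the contractile apparatus were mixed or lower, and are again read beside the 7.93% of all genes called higher and the 12.1% called lower. Of 33 other cytoskeletal genes of smooth muscle 31 are in the table, with 4 called higher and 3 lower. The LIM protein CRIP1 rose from 58.2 to 241 FPKM, LPP, FBLIM1 and PDLIM1 rose by 1.32, 1.27 and 1.10 on the log2 scale, and PDLIM3 and VCL, the gene of vinculin, fell by 1.40 and 1.15. Their median log2 ratio of −0.08 turned positive under median centring. Of 33 receptors and ion channels of contraction 18 are in the table, with 0 called higher and 5 called lower, and the median log2 ratio was −0.66. EDNRB, an endothelin receptor that astrocytes and endothelium also carry, fell from 59.95 to 23.99 FPKM and SLC8A1, a sodium-calcium exchanger, from 32.7 to 10.1 FPKM. The others were ADRA1A, an adrenergic receptor, ABCC9, a subunit of the potassium channel of mural cells, and TRPM4, a cation channel, which fell by 1.04, 1.35 and 1.32 on the log2 scale. KCNMB1, PLN and CACNA1C, further genes of smooth muscle excitation, have no entry.

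**Figure D4:**
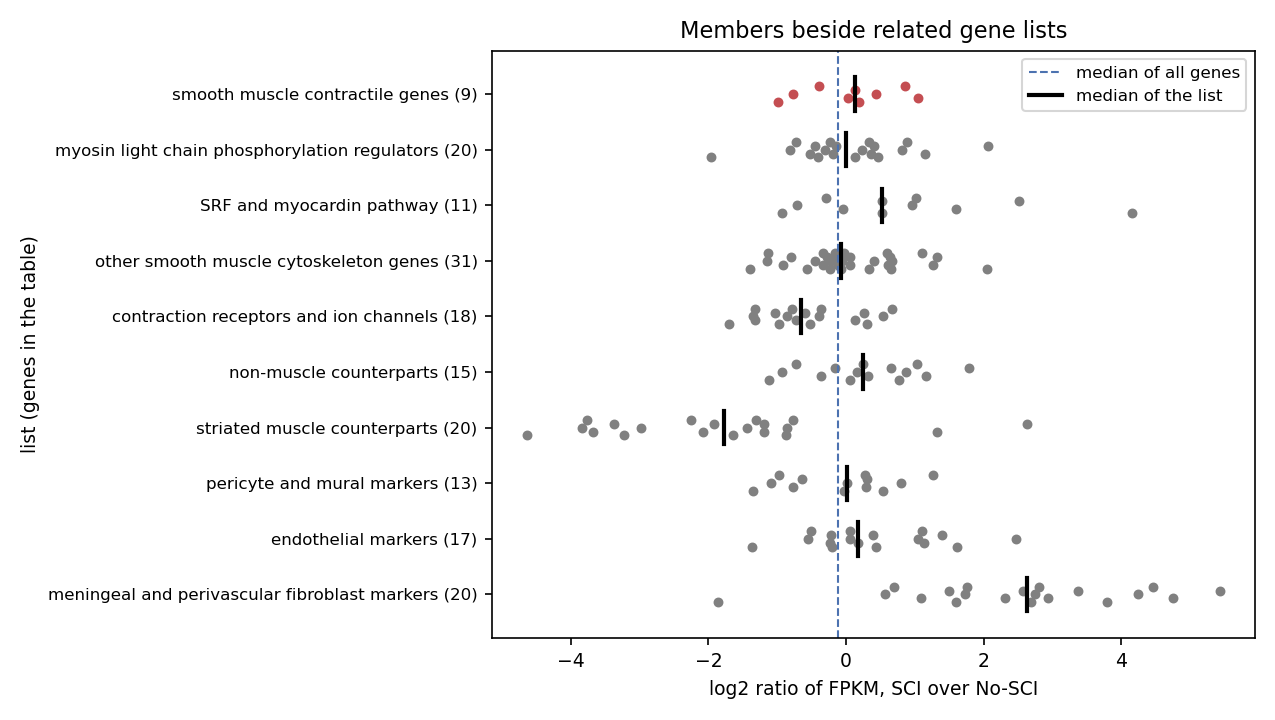
Log2 ratio of FPKM, SCI over No-SCI, for each gene (points) of the smooth muscle contractile genes (red) and of related lists (grey), with a black bar at the median of each list and a dashed line at the median of all genes, −0.12. The contractile genes lie on both sides of it, with a median of 0.13, while the striated muscle list is centred at −1.78 and the fibroblast list at 2.63. All lists were chosen with earlier results of these data known.

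Genes of the other cell types that make contractile proteins were set beside the members. Their lists were chosen with earlier results of these data known, so the counts of called genes are not independent of the values. Of all genes 7.93% were at least 2-fold higher and 12.1% at least 2-fold lower. In RNA of the supernatant, fewer cells of a type, less RNA per cell and less RNA released from the cells cannot be told apart. Of 18 pericyte and mural markers 13 are in the table, with 1 called higher and 2 lower, a median log2 ratio of 0.01 and a sum of 140 FPKM in No-SCI and 132 FPKM in SCI. Their most abundant genes in No-SCI were EBF1 (38.7 and 22.7 FPKM), HIGD1B (22.9 and 28.0 FPKM) and RGS5 (13.96 and 8.95 FPKM), and NOTCH3 and MCAM have no entry. Of 21 endothelial markers 17 are in the table, 6 higher and 1 lower, with a median of 0.17 (1.07 among those with a mean of at least 5 FPKM) and sums of 115 and 183 FPKM. PECAM1, TEK and TIE1 have no entry. Of 24 markers of meningeal and perivascular fibroblasts 20 are in the table, and 17 were higher and 1 lower. Their sum was 132 FPKM in No-SCI and 1231 FPKM in SCI, and OSR1, IGFBP6 and CRABP2 had the largest log2 ratios, at 5.43, 4.74 and 4.46. Of 35 striated muscle genes 20 are in the table, 2 higher and 15 lower, with sums of 616 and 437 FPKM. MYH1 and MYH2, both counted as lower, are listed with the same values, 2.71 and 1.18 FPKM. MB, MYL1 and ACTA1 fell by 4.64, 3.84 and 3.76 on the log2 scale. TNNT2, the cardiac troponin T, rose from 57.2 to 353 FPKM and so made up most of the sum in SCI. The part of these cell types in the values of TPM1, TPM2, TAGLN, MYL9 and DES, which they also make, was not tested.

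The tissue label was checked against markers of cord cells. Of these lists the oligodendrocyte genes had the largest summed FPKM in No-SCI, with MOBP at 44200.3 FPKM in No-SCI, and 13 of 15 neuronal, 14 of 15 oligodendrocyte, 8 of 13 astrocyte and 13 of 13 microglial markers are in the table. GFAP, AQP4 and S100B, which define astrocytes, and MBP and SNAP25 have no entry. The median log2 ratios of these lists were −0.48, −1.44, −1.16 and −0.05.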

How the data were processed

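RNA of the acellular fraction was measured in 2 No-SCI libraries and 1 SCI library, as the labels list them. The authors depleted ribosomal RNA, made stranded total RNA libraries, reduced all libraries to the read number of the smallest, aligned reads on rn6 with STAR 2.5.4b, and normalized by the upper quartile, with Cuffdiff 1.3.0 named in the submitters' processing notes. Deposited FPKM values number 1 per group for each of 12771 entries, so the reads behind each value and the spread are unknown. The lowest value is 1. Of 12758 symbols, 13 are listed 2 times, and the entry with the larger mean was kept. The columns of the authors' own fold changes, p-values, q-values and significance were not used. There were 0 value columns without a group.

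Log2 ratios (SCI over No-SCI) had no pseudocount, and no test between groups could be made. Calls used a fold of 2. Described by counts and medians were 14 lists with 283 entries in all, some genes in more than 1 list, and 11 pairs of a member and its non-muscle counterpart. Named one by one were the members, both genes of each pair, and from the lists genes past 2-fold and the 3 most abundant in No-SCI. SRF, MYL6, MYH14, ACTC1, ACTG1 and TAGLN2 fall in part outside this rule and were chosen after their values were seen, as were the genes named as without an entry. The members and lists were chosen with earlier results of these data known. Protein sequences were not used here, and 1 called gene of a list is not reported here by name. The ratio step was tested on simulated data. Python 3.11.15, numpy 2.4.6, pandas 2.3.3 and matplotlib 3.10.9 were used.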

Additional observations from a re-analysis of the deposited data

How the results depend on the processing

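No paired analysis was possible because the table gives 1 value per group, and for the same reason no replicate could be left out. The alternatives were pseudocounts of 1 and 0.1, subtraction of 1, 3 scalings, minimum means of 1 and 5 FPKM, and summed entries. Each of the 9 members kept its direction under all in which it had a value (CNN1 was removed at 5 FPKM). A constant or a minimum mean cannot turn the direction of a ratio. The 3 scalings moved every ratio up, by at most 0.12, so only a ratio just below 0 could have turned. No member had one, so neither kind of setting could have turned a member. For the members the median, 0.13, was 0.25 with the median of all genes set to 0, 0.18 at the same total, 0.24 at the same upper quartile, 0.16 with a mean of at least 5 FPKM, and 0.058 as a mean in place of a median. The count of members at least 2-fold lower went from 0 to 1 (MYH11) when 1 was subtracted, to 3 at 1.3-fold and 2 at 1.5-fold. The count of those higher went from 1 to 3 at 1.3-fold, 2 at 1.5-fold and 0 at 3-fold. For the 11 pairs, whose alternatives were added after the data were seen, only adding or subtracting a constant can move the difference, since a scaling shifts both genes alike, and none of these 3 settings turned its sign. Among the other lists, the medians of the phosphorylation regulators, other cytoskeletal genes, mural markers and microglial markers, all within 0.08 of 0, changed sign under 1 to 3 alternatives, and that of the mural markers reached −0.64. The striated muscle median, −1.78, was −3.24 with 1 subtracted and −2.98 with a mean of at least 5 FPKM. The reads behind each value are unknown, so what depth limits cannot be given by gene.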
